A study of Mus musculus with 4 samples.

Results

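The family described here is made up of the insulin-like growth factor (IGF) binding proteins and the IGF1 receptor, as 7 genes of a gene expression table of mouse oral cancer cell lines: Igfbp2, Igfbp3, Igfbp4, Igfbp5, Igfbp6, Igfbp7 and Igf1r. The genes were chosen by name with their levels in these lines already in view, so their values and differences are a description, and all 7 were found among the 34685 genes of the table. Igfbp1, the other classical binding protein, was not analysed here. The question put to the table was how much of each gene every line expressed, and how far the levels differed between mice and between sites.

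RNA from 4 lines was sequenced, with 1 library for each line. All lines go back to C57BL/6 mice whose buccal mucosa was painted with the carcinogen 7,12-dimethylbenzanthracene. AOC3 and AOC11 were established from the primary oral tumors of 2 mice, and AOC3-LN and AOC11-LN from the lymph node metastases of the same 2 animals. Tumor cells were passed under the skin of C57BL/6 mice, freed of fibroblasts with an isolation kit and grown in medium with fetal bovine serum. No line of normal oral mucosa and no untreated control was part of the set, and the ages of the donor animals are not given in the labels. Each line stands for 1 tumor of 1 mouse, and the mouse and everything particular to its tumor cannot be told apart.

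IGF1 and IGF2 are small secreted growth factors that signal through the IGF1 receptor, a tyrosine kinase at the cell surface which drives the PI3K-AKT and MAPK cascades. The binding proteins are secreted and hold IGFs with high affinity, which limits or prolongs the access of the ligand to its receptor, and proteases release the ligand by cutting them. IGFBP7 is a relative with a low affinity for IGFs that is found in the extracellular matrix. In squamous epithelia the IGF axis is known for its part in keratinocyte growth and survival.

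The promoter windows of 4 binding protein genes are printed because these genes mark the range of the family in the lines: Igfbp4 varied most, Igfbp7 was the highest, Igfbp3 led the others in 3 lines and Igfbp5 was near 0. Each run is the 250 bases before the RefSeq start of the gene, 5′ to 3′ on the strand of the gene, in build GRCm38.p6, and capitals mark matches to the motifs searched. All 7 genes had an entry in the RefSeq promoter table. The windows lie at chr11:99040994-99041243 (plus strand) for Igfbp4, chr5:77408046-77408295 (minus strand) for Igfbp7, chr11:7213924-7214173 (minus strand) for Igfbp3 and chr1:72874866-72875115 (minus strand) for Igfbp5.
Igfbp4: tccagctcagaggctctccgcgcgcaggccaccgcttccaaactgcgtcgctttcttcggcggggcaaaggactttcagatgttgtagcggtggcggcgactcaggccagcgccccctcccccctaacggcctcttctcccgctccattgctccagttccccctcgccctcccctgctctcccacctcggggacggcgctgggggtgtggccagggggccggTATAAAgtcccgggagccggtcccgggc
Igfbp7: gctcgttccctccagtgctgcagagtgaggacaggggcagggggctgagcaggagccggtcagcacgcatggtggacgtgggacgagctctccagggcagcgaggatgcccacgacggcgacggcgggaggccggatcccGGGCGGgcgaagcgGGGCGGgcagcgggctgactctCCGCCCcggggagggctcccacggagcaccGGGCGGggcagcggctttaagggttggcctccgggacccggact
Igfbp3: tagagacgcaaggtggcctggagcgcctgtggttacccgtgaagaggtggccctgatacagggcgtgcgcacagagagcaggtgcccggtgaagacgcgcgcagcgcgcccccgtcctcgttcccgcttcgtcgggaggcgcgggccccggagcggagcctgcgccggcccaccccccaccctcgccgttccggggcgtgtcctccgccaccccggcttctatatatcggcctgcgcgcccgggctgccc
Igfbp5: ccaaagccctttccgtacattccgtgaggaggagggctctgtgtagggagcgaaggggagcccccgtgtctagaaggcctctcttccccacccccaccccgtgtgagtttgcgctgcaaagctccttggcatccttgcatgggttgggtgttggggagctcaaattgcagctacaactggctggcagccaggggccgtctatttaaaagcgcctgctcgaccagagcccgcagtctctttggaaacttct

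The motifs searched on both strands were the TATA box TATAAA, the GC box GGGCGG, the CCAAT box CCAAT and the AP-1 site TGANTCA, none of which overlapped another in these windows. Among 32851 mouse promoters of the same length, 12.4% held TATAAA, 32.7% GGGCGG, 33.8% CCAAT and 6.75% TGANTCA. The Igfbp4 window held 1 TATA box at positions -28 to -23 from the start, and the Igfbp7 window 4 GC boxes, 3 on the plus and 1 on the minus strand of the gene. The windows of Igfbp3 and Igfbp5 held none of these letters. Igf1r held 2 GC boxes, and of the 2 windows of Igfbp2 one held 3 GC boxes and the other 1 AP-1 site. The window of Igfbp6 held 1 TATAAA and 2 CCAAT. Positions count from the RefSeq start, which lies before the gene start in the annotation used for the table by 570 bases in Igf1r, 176 in Igfbp6, 23 in the first window of Igfbp2 and 4 in Igfbp7. On the same count the second window of Igfbp2 stands at -884 and that of Igfbp5 at -19, where the RefSeq start lies inside the annotated gene.

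CpG dinucleotides were frequent in most of these windows. The count was 42 in Igf1r, 32 in Igfbp3, 26 in Igfbp7 and 22 in Igfbp4, where the median over all promoters was 6. Igfbp5 had 10, Igfbp6 had 7, and the windows of Igfbp2 had 14 and 11. GC content ran from 49.6% in Igfbp6 to 77.6% in Igf1r around a median of 52.4% over all promoters.

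Levels were deposited as FPKM, fragments divided by transcript length and by library size, so that levels of different genes can be set side by side. The table holds no counts. From the spacing of low values the libraries were estimated to rest on 28280500 to 33852000 fragments, which limits how precisely a low level is known. Epithelial markers were present in all lines, with 8 of 8 at 1 FPKM or more and sums of 3230 to 3756 FPKM. Among them Krt5 was at 499 FPKM in AOC3 and 275 in AOC3-LN, against 4.99 in AOC11 and 17.0 in AOC11-LN. None of 8 fibroblast markers reached 1 FPKM in any line, their sum was between 0.241 and 1.23 FPKM, and the highest single value was 0.407 FPKM. None of 5 endothelial markers and 1 of 6 pericyte and smooth muscle markers, Acta2, reached 1 FPKM. That last list summed to 0.106 FPKM in AOC3 and 0.054 in AOC3-LN, against 5.90 in AOC11 and 7.12 in AOC11-LN, with Pdgfrb, Rgs5, Des, Cspg4 and Myh11 at most 0.075 FPKM. Of 6 macrophage markers Cd68 and Csf1r did, with Adgre1 at 0 in all lines, Ptprc at most 0.064 FPKM and list sums of 14.0 FPKM in AOC3 and 9.29 in AOC3-LN, against 27.0 in AOC11 and 10.5 in AOC11-LN. Of 5 T cell markers Trac alone did, with Cd3e, Cd4 and Cd8a at 0 and sums of 0.965 to 2.13 FPKM. In such bulk samples fewer cells of a type and less RNA per cell cannot be told apart.

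The members covered a wide range of levels, and Igfbp7 was the highest of them in every line. Igfbp3 came next in AOC3-LN, AOC11 and AOC11-LN, and Igfbp4 came next in AOC3. Igf1r held a place in the middle throughout, and Igfbp2 and Igfbp5 were below 1 FPKM everywhere. After these 2 genes were left out by the filter (1 FPKM in at least 1 line), 5 members were kept for comparisons among 14155 genes.

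**Figure D1:**
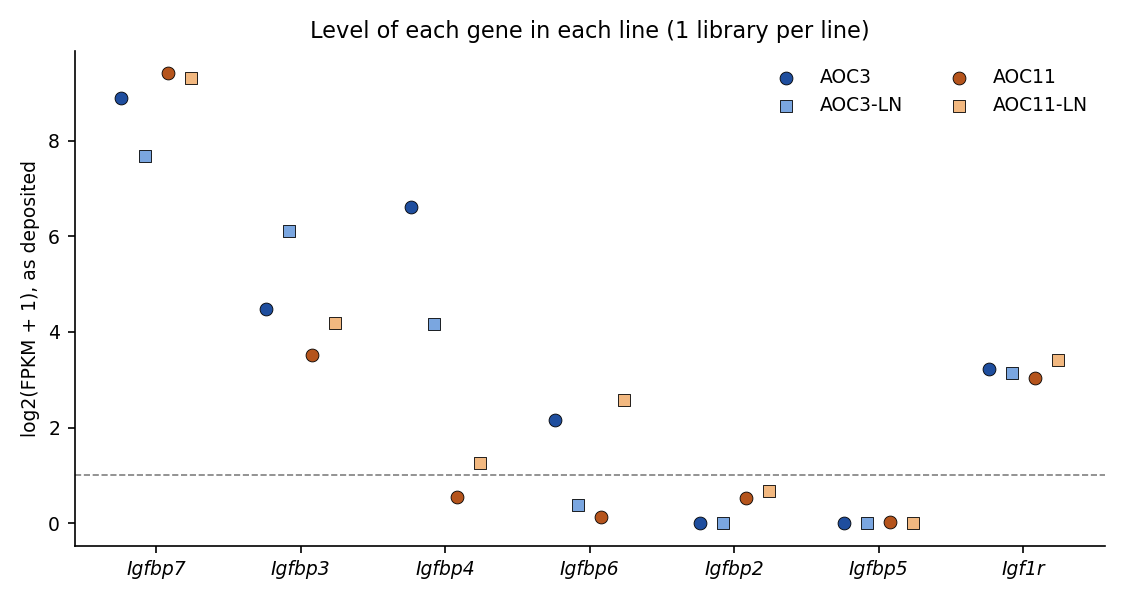
Level of each gene in each line, as log2 of FPKM plus 1 from the deposited values, with 1 point for each library and a dashed line at 1 FPKM. Igfbp7 lies on top in all lines, Igfbp4 is spread from 0.462 to 97.4 FPKM, and the 4 points of Igf1r lie together between 7.17 and 9.63 FPKM.

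Igfbp7 (ENSMUSG00000036256.13, chr5:77349240-77408041, minus strand, mm10) encodes the low-affinity matrix relative. Its level was 478 FPKM in AOC3 and 205 in AOC3-LN, against 680 in AOC11 and 636 in AOC11-LN. The lines of the AOC11 mouse were both high and close to each other, and AOC3-LN was the lowest of the set. Among 19557 protein-coding genes it ranked 177th in AOC3 and 437th in AOC3-LN, and 149th and 146th in AOC11 and AOC11-LN, so it belonged to the most abundant transcripts of every line. AOC3 was 2.33-fold above AOC3-LN by FPKM, while AOC11 exceeded AOC11-LN by 1.07-fold. The gene shares 85 bases with Polr2b, a polymerase II subunit gene on the opposite strand at 39.5 to 50.4 FPKM, and 7085 bases with the antisense gene Gm34648, which was not analysed here. These are stretches of whole gene spans, introns included, and the longest Igfbp7 transcript has 1200 bases. How many of the shared bases lie in exons was not computed. The methods name default settings, which in these tools do not use strand. Reads of any shared exon bases therefore cannot be assigned to one gene.

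Igfbp3 (ENSMUSG00000020427.11, chr11:7206086-7213923, minus strand) encodes the main IGF carrier of blood. It was at 21.4 FPKM in AOC3 and 68.5 in AOC3-LN, against 10.5 in AOC11 and 17.2 in AOC11-LN. Both lines of the AOC3 mouse lay above both lines of the AOC11 mouse, and in each mouse the lymph node line was the higher one. The node line exceeded the primary line 3.20-fold in the AOC3 mouse and 1.64-fold in the AOC11 mouse. Between mice the ratio was 2.04 for the primary lines and 3.98 for the node lines.

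Igfbp4 (ENSMUSG00000017493.12, chr11:99041244-99054392, plus strand) encodes a binding protein that mostly restrains IGF action and is cut by the protease PAPP-A. It was at 97.4 FPKM in AOC3 and 16.9 in AOC3-LN, against 0.462 in AOC11 and 1.39 in AOC11-LN. The AOC3 mouse was far above the AOC11 mouse at both sites, with no overlap, and the direction from primary to node line was opposite in the 2 mice. AOC3 exceeded AOC11 211-fold, and AOC3-LN exceeded AOC11-LN 12.2-fold. Within the AOC3 mouse the primary line was 5.75-fold above the node line. The level of AOC11 corresponds to an estimated 57 fragments if its longest transcript is taken and to 4 if its shortest is taken, and 6 transcripts of 452 to 3831 bases are annotated. On the longest transcript, AOC11-LN exceeded AOC11 3.01-fold, with a 95% interval for counting error of 2.24 to 4.18. The shortest transcript would give 13 against 4 fragments, for which the interval was not computed and would be wider.

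Igfbp6 (ENSMUSG00000023046.6, chr15:102144362-102149511, plus strand) encodes a binding protein that prefers IGF2 to IGF1. It was at 3.44 FPKM in AOC3 and 0.295 in AOC3-LN, against 0.096 in AOC11 and 4.95 in AOC11-LN. One line of each mouse was above 1 FPKM and the other below, and these were the primary line in one animal and the node line in the other, so that the mice overlapped. AOC3 exceeded AOC3-LN 11.7-fold (95% interval for counting error 5.66 to 27.4, on an estimated 110 against 8 fragments). AOC11-LN exceeded AOC11 51.7-fold (17.9 to 261, on an estimated 153 against 3 fragments). The lower level in each pair rests on so few fragments that the size of the ratio is known only within these limits, although neither interval reaches 1.

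Igf1r (ENSMUSG00000005533.10, chr7:67952827-68233668, plus strand) encodes the receptor. It was at 8.38 FPKM in AOC3 and 7.86 in AOC3-LN, against 7.17 in AOC11 and 9.63 in AOC11-LN. The lines lay close together, with the highest 1.34-fold above the lowest and the mice overlapping. The order of these 4 levels rests on differences for which 1 library per line gives no replicate error.

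Igfbp2 (ENSMUSG00000039323.18, chr1:72824503-72852474, plus strand), whose product carries an integrin-binding motif, was listed at 0 in AOC3 and AOC3-LN, at 0.443 FPKM in AOC11 and at 0.592 FPKM in AOC11-LN. The AOC11 values correspond to an estimated 17 and 22 fragments on its longest transcript and to 11 and 14 on its shortest, so the gene was detected in both lines of that mouse and, at this depth, not in those of the other. Igfbp5 (ENSMUSG00000026185.8, chr1:72857932-72874884, minus strand), whose product binds to the matrix, was at most 0.015 FPKM, an estimated 3 fragments, and was not detectable above that depth. These genes lie tail to tail, 5.5 kb apart, and neither passed the filter.

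As summed FPKM, the 6 binding protein genes came to 600 in AOC3 and 290.4 in AOC3-LN, and to 692 in AOC11 and 661 in AOC11-LN. Igfbp7 made up 79.6%, 70.5%, 98.3% and 96.3% of these sums in the same order. Without Igfbp7 the sums were 122, 85.7, 11.5 and 24.1 FPKM, higher in both AOC3 lines than in both AOC11 lines. The remaining pool was led by a different gene in AOC3 than in the other lines. Igfbp4 held 79.7% of it in AOC3 and 19.7% in AOC3-LN, but 4.01% in AOC11 and 5.76% in AOC11-LN. Igfbp3 held 17.5% in AOC3 and 79.9% in AOC3-LN, with 91.2% in AOC11 and 71.3% in AOC11-LN. Igfbp6 held 20.5% in AOC11-LN and no more than 2.81% elsewhere. Set against the receptor, the pool without Igfbp7 was 14.6 times the Igf1r level in AOC3, 10.9 times in AOC3-LN, 1.60 times in AOC11 and 2.51 times in AOC11-LN. These are ratios of transcript levels and do not give amounts of secreted protein.

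**Figure D2:**
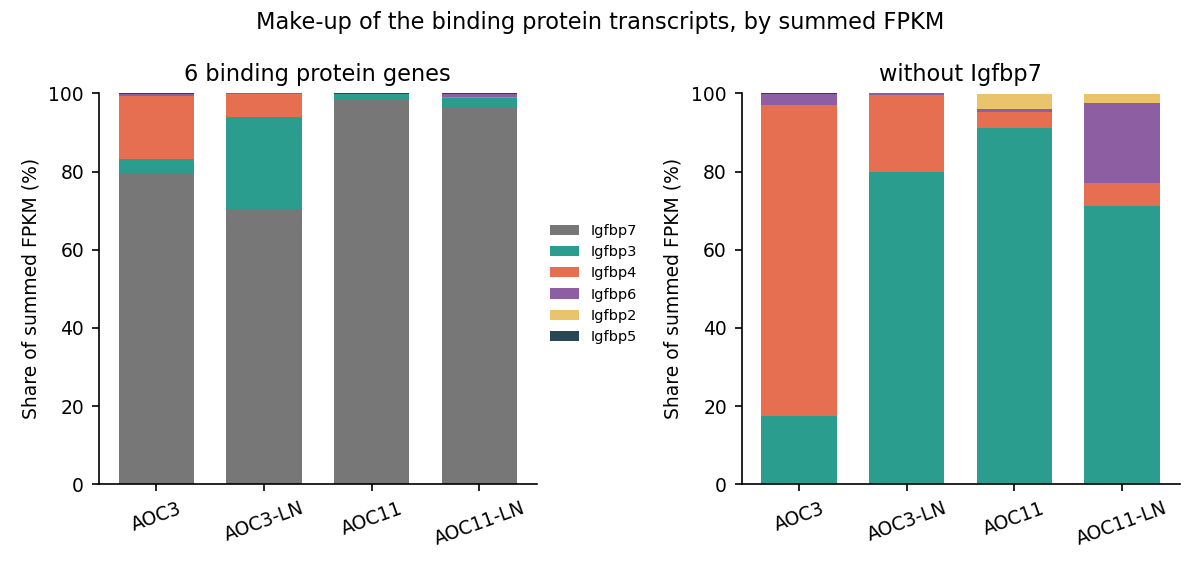
Share in percent of each binding protein gene in the summed FPKM of the 6 genes (left) and of the 5 genes without Igfbp7 (right), with 1 bar for each line. Igfbp7 fills 70.5% to 98.3% of the left bars, and on the right Igfbp4 leads in AOC3 and Igfbp3 in the other lines.

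For comparisons, log2(FPKM + 1) was quantile-normalized over the lines, and a difference above 1 or below -1, that is 2-fold on this scale, was counted. This scale understates the change of low genes, and with 1 library per line no p-value was computed. The difference between mice was the mean of both AOC3 lines less the mean of both AOC11 lines. Igfbp4 was 4.59 higher and Igfbp3 was 1.49 higher in the AOC3 lines. Igfbp7 was lower by a difference of -0.97, just inside the limit, Igfbp6 differed by -0.04 and Igf1r by 0.03. The smooth muscle marker Acta2 also separated the mice (0.044 and 0.0016 FPKM in the AOC3 lines, 5.79 and 6.97 FPKM in the AOC11 lines), as did 2 macrophage markers in opposite directions. Csf1r was at 0.995 and 0.435 FPKM in the AOC3 lines and at 20.8 and 6.01 FPKM in the AOC11 lines, and Cd68 was at 13.0 and 8.79 against 6.15 and 4.45 FPKM. Of the epithelial markers Krt5 alone passed the fold between mice, higher in the AOC3 lines by 5.19. The part of these markers in the differences of the members was not tested. In all, 2 of 5 members passed the fold, both higher in the AOC3 lines, beside 11.1% of all genes tested in either direction, 5.11% higher and 6.0% lower. The rule that chose the members had these levels in view, so nothing is read from that share. Igfbp4 (6.02 and 3.16) and Igfbp3 (1.01 and 1.97) passed at both sites, first the primary and then the node lines, as did 4.82% of all genes in either direction and 2.21% in theirs. The Igfbp3 value of the primary lines lay barely past the limit, and passing at both sites was not examined under other scalings. The primary lines alone differed past the fold in 11.9% and the node lines in 16.3% of all genes. Without AOC3-LN the difference of Igfbp3 was 0.67 and no longer passed. Igfbp7 passed at -1.07 without quantile normalization and at -1.60 without AOC3, and stood at -0.34 without AOC3-LN.

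The mice did not overlap in Igfbp3, Igfbp4 and Igfbp7, a property of 53.0% of all genes tested. Igfbp3 and Igfbp4 were higher in both AOC3 lines, as were 22.5% of all genes, and Igfbp7 in both AOC11 lines, as were 30.5%. Igfbp2 was also higher in both AOC11 lines, but it did not pass the filter and these shares do not cover it. Igfbp6 and Igf1r overlapped.

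Within the AOC3 mouse, 4 of 5 members passed the fold between the node and the primary line, beside 5.53% of all genes. One member was higher, beside 2.11% of all genes, and 3 were lower, beside 3.42%. Igfbp3 was 1.63 higher in AOC3-LN. Igfbp4 differed by -2.43, Igfbp6 by -1.70 and Igfbp7 by -1.27, all lower in AOC3-LN, and Igf1r differed by 0.01. Within the AOC11 mouse, 1 of 5 passed, beside 8.1% of all genes in either direction, 4.96% higher and 3.14% lower in AOC11-LN. That gene was Igfbp6, 2.31 higher in AOC11-LN, and the others differed by 0.66 for Igfbp3, 0.43 for Igfbp4, 0.35 for Igf1r and -0.02 for Igfbp7. Igfbp6 passed in opposite directions in the 2 mice, as did 0.982% of all genes, and no member passed in the same direction in both, as did 0.643%. The members were chosen with these levels in view, so nothing is read from the shares in either mouse. Igfbp6 passed the filter only through AOC3 and AOC11-LN, the higher lines of its differences.

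The only spread that the design offers for a difference between mice is that between the lines of a mouse. For Igfbp4 the difference between mice was larger in size than both of its within-mouse differences, which held for 39.4% of all genes and for no other member that passed the filter. For Igfbp3 and Igfbp7 the difference within the AOC3 mouse was larger. Over the 4 lines the normalized level ranged over 6.02 for Igfbp4, 2.64 for Igfbp3, 2.31 for Igfbp6, 1.62 for Igfbp7 and 0.35 for Igf1r. A smaller range than that of Igfbp4 was found in 99.5% of all genes tested, and a smaller one than that of Igf1r in 15.3%.

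**Figure D3:**
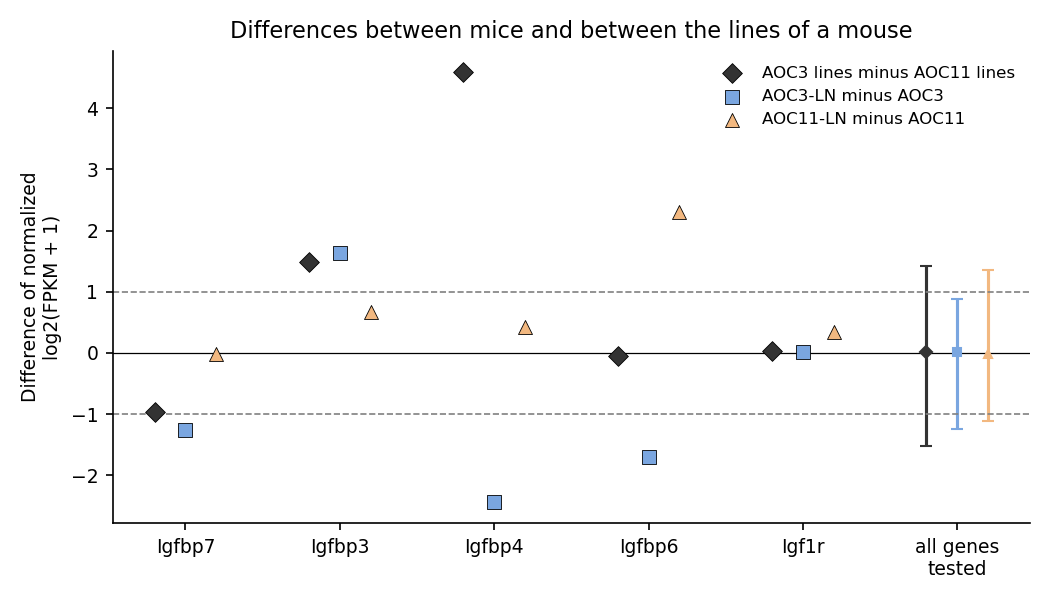
Difference in normalized log2(FPKM + 1) for the 5 members that passed the filter, between mice (diamonds), AOC3-LN minus AOC3 (squares) and AOC11-LN minus AOC11 (triangles), with dashed lines at the 2-fold limit. On the right, the median of all genes tested and the range of their central 95% are drawn, and the Igfbp4 diamond at 4.59 lies above that range.

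The other genes of the axis were listed by role, and 66 of 69 had an entry. Ins2, Igfbp1 and Mmp7 were not analysed here. The filter kept 47, and the 19 below 1 FPKM in all lines include the ligands. Igf1 was at 0.309 FPKM in AOC3 and 0.134 in AOC3-LN, against 0.091 in AOC11 and 0.088 in AOC11-LN. Igf2, the other ligand, was at 0.113, 0.390, 0.094 and 0.597 FPKM in the same order. Pappa, the protease that cuts IGFBP4, did not exceed 0.156 FPKM in any line. The transcripts of both ligands were thus lower than that of their receptor in every line.

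Receptors and proteases were better represented. Igf2r, which clears IGF2 from the surface, was at 27.2 FPKM in AOC3 and 29.6 in AOC3-LN, against 37.5 in AOC11 and 24.4 in AOC11-LN. Insr, the insulin receptor, was at 4.97, 2.61, 5.77 and 7.02 FPKM. Htra1, a secreted serine protease which cuts binding proteins and carries an IGFBP-type domain itself, was at 514 FPKM in AOC3 and 504 in AOC3-LN, against 229 in AOC11 and 300.4 in AOC11-LN. Its lines did not overlap between mice, and its difference of 0.98 stayed short of the limit, which it passed at 1.04 with median scaling. Adam12, a metalloprotease, was at 15.4, 12.9, 27.3 and 12.1 FPKM, and differed by -1.12 between AOC11-LN and AOC11.

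Between mice 6 of the 47 genes (12.8%) passed the fold, with a median difference of -0.08, beside 11.1% of all genes and their median of 0.01. Higher in the AOC3 lines were Socs3, a feedback inhibitor of cytokine and insulin signaling, by 1.19, and Igf2bp2, an mRNA-binding protein, by 1.25. Socs3 was at 13.4 FPKM in AOC3 and 14.4 in AOC3-LN, against 7.34 in AOC11 and 4.82 in AOC11-LN. Igf2bp2 was at 92.5, 73.6, 34.6 and 35.8 FPKM, and both genes separated the mice. Lower in the AOC3 lines were Ccn4, a matricellular protein with an IGFBP-type domain, by a difference of -2.24, Igf2bp1 by -1.57, the adaptor Gab1 by -1.34 and Tmem219, a surface receptor for IGFBP3, by -1.12. Igf2bp1 was at 0.077 and 0.082 FPKM in AOC3 and AOC3-LN and at 3.66 and 1.47 FPKM in AOC11 and AOC11-LN. Tmem219 was at 9.26, 5.73, 14.1 and 22.8 FPKM, higher in both AOC11 lines.

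Between the sites fewer of them passed. In the AOC3 mouse 2 of 47 (4.26%) did, with a median of -0.03, beside 5.53% of all genes. These were the adaptors Grb14, higher in AOC3-LN by 1.22, and Irs2, which differed by -1.29. Irs2 was at 8.09 FPKM in AOC3 and 2.41 in AOC3-LN, against 5.82 in AOC11 and 8.35 in AOC11-LN, so that AOC3-LN was the low line. In the AOC11 mouse 4 of 47 (8.51%) passed, all lower in AOC11-LN, with a median of -0.07, beside 8.1% of all genes. Besides Adam12 these were Ccn1 at -2.29, Ccn2 at -1.25 and Igf2bp1 at -1.12. Without quantile normalization or with median scaling, 1 was higher (Lrp1, at 1.04 and 1.06) and 3 were lower, Igf2bp1 no longer passing. Ccn1, a matricellular protein with an IGFBP-type domain, was at 524 FPKM in AOC3 and 307 in AOC3-LN, against 910 in AOC11 and 184 in AOC11-LN. In the PI3K and AKT branch none of 19 genes passed in any of the 3 comparisons, in which 18.2% of all genes passed at least once, although Pdpk1 passed in the AOC11 mouse at -1.09 with a pseudocount of 0.1. The kinase gene Akt1, with the highest mean of that branch, was at 158 FPKM in AOC3 and 211 in AOC3-LN, against 228 in AOC11 and 169 in AOC11-LN.

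**Figure D4:**
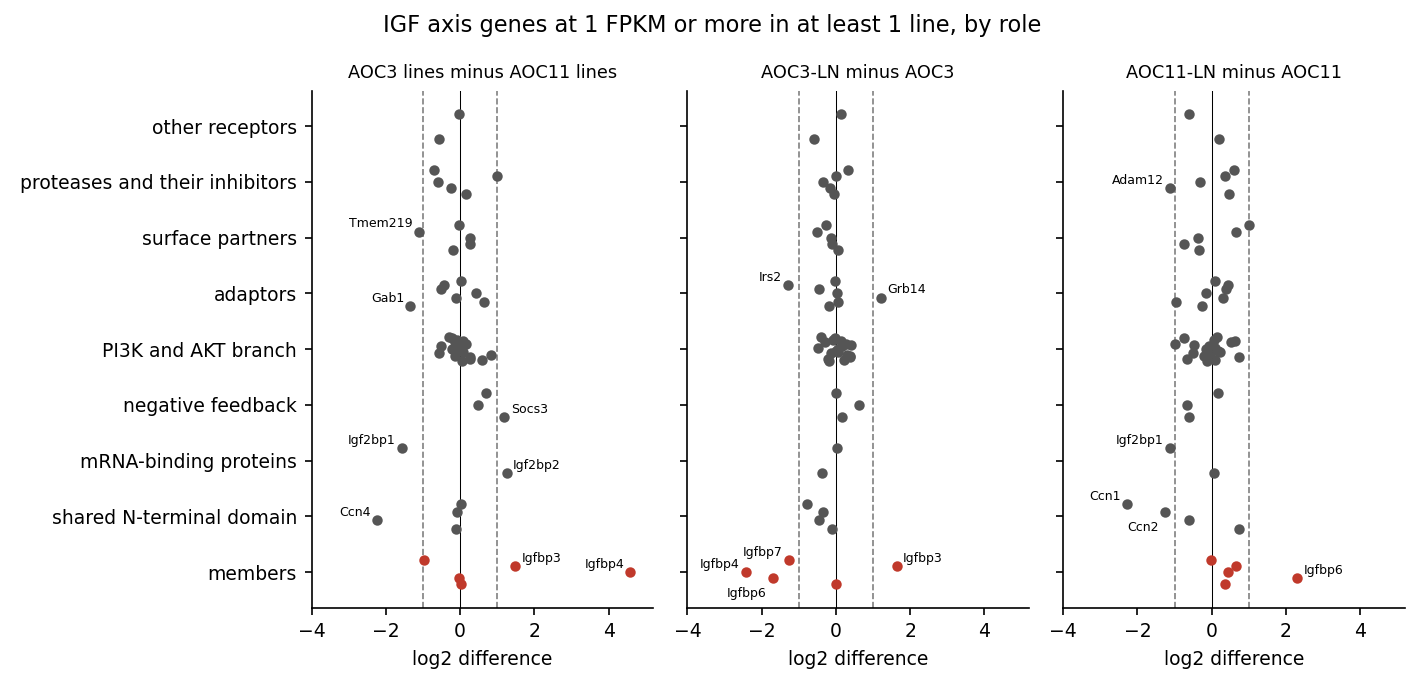
Difference in normalized log2(FPKM + 1) for the 47 listed IGF axis genes that passed the filter, by role, and for the 5 members (red), in the 3 comparisons, with names at genes past the dashed 2-fold lines. The PI3K and AKT branch stays between the lines in all panels, and Igfbp4 at 4.59 lies farthest out between mice.

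The genes whose pattern over the 4 lines was most like that of a member were sought among 11372 other protein-coding genes, by the distance between normalized log2 levels less their mean. Over 4 lines many genes can share a pattern, so this is a description. Igfbp7 was closest to Vegfc, a lymphatic growth factor gene, at a distance of 0.0686, then Car13 and Stap2, and 85 genes lay within 0.5 of it. Vegfc was at 5.21 FPKM in AOC3 and 1.28 in AOC3-LN, against 6.75 in AOC11 and 7.16 in AOC11-LN, with AOC3-LN again the low line. Igfbp3 was closest to Ghr, the growth hormone receptor gene, at 0.234, with Asphd2 also among its 3 closest genes and 6 genes within 0.5. Ghr was at 6.37, 18.0, 2.82 and 4.96 FPKM. Igfbp6 was closest to Pdcd4, an inhibitor of translation, at 0.445, the single gene within 0.5, then Rimklb and Apol9b. Pdcd4 was at 12.9, 5.11, 3.73 and 23.1 FPKM. Igfbp4 had no gene within 0.5. This distance grows with the range of a member over the lines. Its median over the genes compared was 4.95 for Igfbp4, 2.12 for Igfbp6, 2.01 for Igfbp3 and 1.39 for Igfbp7. The numbers of genes within 0.5 therefore cannot be set against each other. Closest to Igfbp4 was Gm17571 at 1.44, a transcript of 90 bases whose FPKM is among the least certain of the table. Then came the basal keratin gene Krt5 at 1.48 and Gm11032 with 102 bases at 1.57. Krt5 was at 499 FPKM in AOC3 and 275 in AOC3-LN, against 4.99 in AOC11 and 17.0 in AOC11-LN, the same order of lines as Igfbp4.

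**Figure D5:**
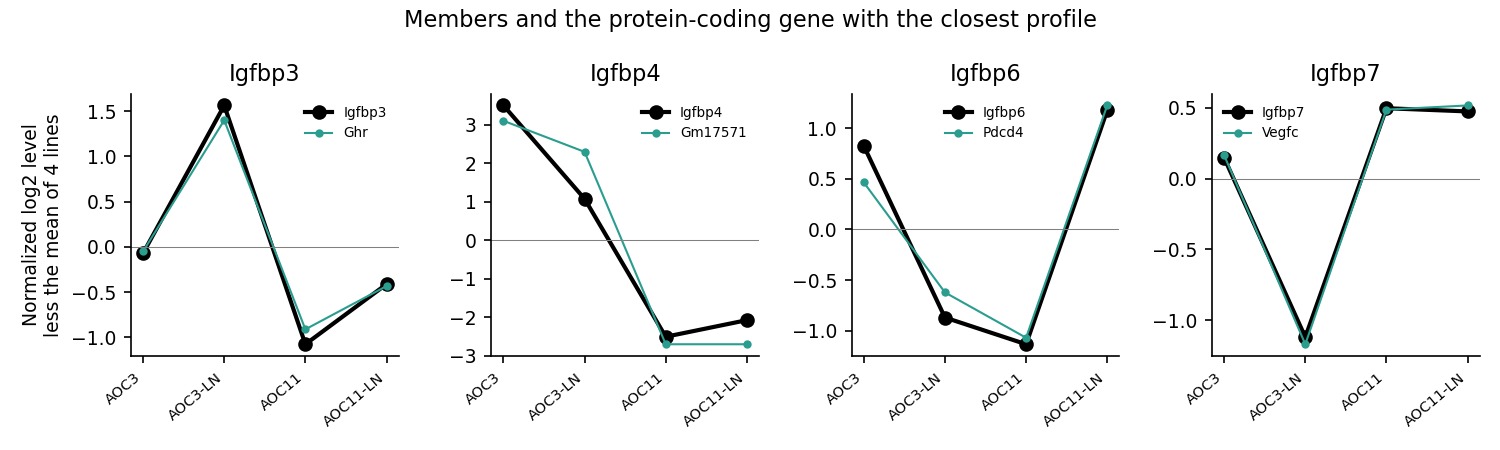
Normalized log2 level less the mean of the 4 lines for 4 members (black) and the protein-coding gene closest to each (colored), with the lines of the AOC3 mouse first. The curves of Igfbp7 and Vegfc nearly coincide (distance 0.0686, where the median over the genes compared was 1.39). The closest curve to Igfbp4 is 1.44 away, where that median was 4.95.

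In the genome, Igfbp4 lies between Top2a, a DNA topoisomerase gene 17.1 kb away, and Tns4, a focal adhesion gene 11.3 kb away. Top2a was even over the lines at 247 FPKM in AOC3 and 199 in AOC3-LN, against 228 in AOC11 and 248 in AOC11-LN. Tns4 was at 159, 199, 16.4 and 37.0 FPKM, higher in both AOC3 lines by a normalized difference of 2.84. Of 9 genes within 250 kb of Igfbp4 that passed the filter, Tns4 alone passed the fold between mice, beside 11.1% of all genes tested. The window was chosen after the value of Tns4 was seen, so nothing is read from that count. Spryd3, 8.1 kb from Igfbp6, was at 16.5 FPKM in AOC3 and 15.0 in AOC3-LN, against 18.7 in AOC11 and 26.5 in AOC11-LN, and did not show the swings of Igfbp6.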

How the data were processed

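RNA from 4 lines was sequenced by the authors as stranded, paired-end mRNA libraries, 1 for each line. Per the labels and the methods, reads were trimmed with Trim Galore, mapped to mm10 with TopHat2 and quantified by Cufflinks at default settings, using the GENCODE M21 annotation. The authors deposited FPKM values that are neither log-transformed nor quantile-normalized, and no counts. The members and gene lists were chosen with earlier results of these data known.

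With Python 3.11.15, numpy 2.4.6, pandas 2.3.3 and scipy 1.17.1, a pseudocount of 1 was added, log2 was taken and the 4 lines were quantile-normalized. Of repeated gene identifiers the entry with the highest mean was used. Genes with 1 FPKM in at least 1 line were compared, which left 14155. A difference past 2-fold was counted, with no p-value, since each group is 1 library and lines of a mouse are not replicates. Depth was estimated from the low values, 3112 to 3471 in a line, among 9528 genes with 1 transcript over 800 bases. Depth and a length offset were chosen to bring these values closest to whole fragments. After that fit, 63.2% to 66.9% of them fell within 0.1 of a whole fragment, where evenly spread values without a fit would give 20%. The estimate was tested on simulated data. Fragment numbers and intervals (95%) rest on that estimate and the annotated transcript length, and cover counting error only. Named were all members, the axis genes past 2-fold in any comparison, otherwise the highest of a role, the 3 closest profiles (1 of these genes is not reported here) and the nearest protein-coding neighbours; ligands, Pappa and the receptors are named for their role. Alternatives were a pseudocount of 0.1, no quantile normalization, scaling to one median, no filter or a filter of 5 FPKM, a limit of 1.5-fold and leaving out each line.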

Additional observations from a re-analysis of the deposited data

Results flagged for a closer look

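In 3 genes among the members and the other axis genes, the node line shifted against its primary line in opposite directions in the 2 mice, with at least 1 shift past 2-fold. The share of all genes tested that meet this rule was not computed, so nothing is read from that count. Igfbp4 differed by -2.43 between AOC3-LN and AOC3 and by 0.43 between AOC11-LN and AOC11. Igfbp6 differed by -1.70 in the AOC3 mouse and by 2.31 in the AOC11 mouse. Irs2 differed by -1.29 and 0.43 in the same order. Igf2bp1 also met this rule by sign but was left out of the count of 3. It differed by 0.026 in the AOC3 mouse, at 0.077 and 0.082 FPKM and thus with no shift to speak of. In the AOC11 mouse it differed by -1.12. The difference between the mice was not tested, since each line is 1 library.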

How the results depend on the processing

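The node and primary line of a mouse form a pair, and no paired test over the 2 mice was run. An effect of site common to both mice, with the mouse as a block, was not fitted, and the difference within each mouse is given instead. No member's difference that was called changed sign under any alternative. The difference of Igfbp6 between mice, -0.04 with all lines, ran from -1.20 to 1.11 when a line was left out, and that of Igfbp4 from 3.37 to 5.80. Between mice, the members past the fold numbered 1 to 3 when a line was left out, and Igfbp4 alone passed without AOC3-LN. In the other cases Igfbp3 and Igfbp4 passed, joined by Igfbp7 at -1.60 without AOC3. Igfbp6 joined them at -1.20 without AOC11 and at 1.11 without AOC11-LN, thus in opposite directions. Of all genes, 1456 of 13950 passed without AOC3-LN and 1955 of 13931 without AOC3. Without AOC11 1938 of 13998 passed, and without AOC11-LN 1794 of 13663. In the AOC11 mouse, 0 members passed with a filter of 5 FPKM and 2 at 1.5-fold. Without a filter, 2 members had their largest difference between mice. Of the other axis genes, 13 passed between mice at 1.5-fold and 3 passed at both sites. In the AOC3 mouse 1 passed with a filter of 5 FPKM and 5 at 1.5-fold, and in the AOC11 mouse 8 (2 higher, 6 lower) with a pseudocount of 0.1 and 19 (6 higher, 13 lower) at 1.5-fold. Of all genes, 2624 passed between mice with a pseudocount of 0.1, 3812 at 1.5-fold and 682 at both sites, against 1573. In the AOC3 mouse 1442 and 1947, and in the AOC11 mouse 2071 and 3479, passed under the first 2 of these, against 783 and 1147. In the AOC11 mouse 702 genes were higher and 445 lower, against 910 and 369 without quantile normalization and 918 and 357 with median scaling. The causes were not tested. With 1 library per line there is no replicate error, and levels under 1 FPKM rest on few fragments.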
